A study of Mus musculus with 4 samples.

Results

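The canonical piRNAs of mouse sperm described here are the distinct sequences of 29 to 32 nt that the deposited tables annotate as piRNA, that match the genome and that begin with T (U in the RNA). They were chosen by annotation, length and first base alone and joined across libraries by sequence, and their read counts in each library were kept. The 4 libraries together held 56407 such sequences, out of 201520 genome-matched piRNA-labelled sequences of 18 nt or longer and 1611102 distinct sequences of any kind. They carried 2482037 reads. The annotation and the genome mark of all 56407 were the same in every file that lists them.

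piRNAs are short RNAs of the animal germ line that are loaded into PIWI proteins, and in mammals they keep transposons silent and are needed to make sperm. In the mouse testis the longer ones are bound mainly by MIWI (PIWIL1) and the shorter ones by MILI (PIWIL2). Most are cut out of long single-stranded precursors, with a U as first base, and many of those made during meiosis come from long non-coding transcripts, while others come from the 3′ UTR of messenger RNAs. Where piRNAs guide the slicing of a complementary transcript, the fragments can themselves become piRNAs and then carry an A at position 10, counted from 1 at the 5′ end.

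The series compared sperm small RNA of 2 groups of C57BL mice with 2 libraries each. Mdd mice were given varied daily stressors in random order, such as restraint, tilted or damp cages, noise and isolation, and control mice were left undisturbed apart from routine care. The protocol names sperm as the source of the RNA, whereas the tissue fields name testis and testicular cells. The labels do not say that the libraries came from separate animals, and every p-value here therefore reflects the scatter among these 4 libraries, part or all of which may be technical.

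The sequences below are the most read members that matched a GENCODE M21 transcript exactly, and they show what these RNAs look like. They were picked for their read counts and their placement after the values were seen. The capitals mark the first base, which the selection fixed, and the base at position 10, which it did not.
piRNA of Gm5878: TagaagacgAgtttggactgagcgaaattc
piRNA opposite Gm17187: TataggtcgTtgatcttaatgctggactcc
piRNA of Gm49794: TtttggctcAtggatctggaagttgaagt
piRNA opposite Gm7787: TtccactgcTttgccaattatcgtgtccgc
piRNA of Nemp1: TtgcttggtTctttcattgtgatcttcacc
piRNA of Cdc42ep3: TgcgctgagCaagatctccaagaccctgtc

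The position of each of the 6 comes from a match to GRCm38 transcripts, since the deposited tables hold no coordinates, and each matched at 1 locus of the annotation. The Gm5878 piRNA lies at chr6:85112878-85112907 on the minus strand, in an exon of a lincRNA and in the direction of that transcript. The piRNA opposite Gm17187 lies at chr14:44779670-44779699 on the minus strand, antisense to an exon of an unprocessed pseudogene. The Gm49794 piRNA lies at chr17:27357639-27357667 on the plus strand, in a lincRNA exon in sense. The piRNA opposite Gm7787 lies at chr9:67748455-67748484 on the plus strand, antisense to a processed pseudogene. The Nemp1 piRNA lies at chr10:127698235-127698264 on the plus strand, in the 3′ UTR of the gene for an inner nuclear membrane protein. The Cdc42ep3 piRNA lies at chr17:79335622-79335651 on the minus strand, in the 5′ UTR of the gene for an effector of the small GTPase CDC42. Of these 6, 2 carried A at position 10.

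Library totals were between 12845403 and 24112532 reads, of which 9706895 to 23806805 were 18 nt or longer, and CPM takes the latter as its base. Values of replicates 1 and 2 are given in that order. Mdd replicates 1 and 2 and control replicate 2 each stood apart in some measure. In Mdd replicate 1, 24.9% of members had 1 read, against 1.63% to 10.6% in the others. In Mdd replicate 2, 14.5% of member reads ended in GG, against 3.88% to 4.70% in the others. Control replicate 2 stood apart in the miRNA hairpins of other cell types, all of which were found. The 4 of striated muscle summed to 12.5 and 3.91 CPM in Mdd and 28.7 and 1034 CPM in control libraries. The endothelial hairpin had 19.5 and 3.44 CPM in Mdd and 30.3 and 210 CPM in control libraries, and the 5 epithelial hairpins 61.6 and 67.6 CPM in Mdd and 61.1 and 272 CPM in control libraries. The 3 leukocyte hairpins summed to 2.99 and 0.882 CPM in Mdd and 4.84 and 13.1 CPM in control libraries, and the erythroid hairpin had 482 and 189 CPM in Mdd and 337 and 88.2 CPM in control libraries. The 3 male germ cell hairpins summed to 2155 and 835 CPM in Mdd and 1656 and 1623 CPM in control libraries. With miRNA reads as the base of CPM, they summed to 288505 and 228416 in Mdd and 253293 and 112301 in control libraries, and the epithelial hairpins to 8248 and 18487 in Mdd and 9342 and 18831 in control libraries. On that base control replicate 2 was lowest in the germ cell list and close to Mdd replicate 2 in the epithelial list. The part of these features in the results was not tested.

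Canonical piRNAs of 29 to 32 nt made up a smaller part of the Mdd libraries than of the control libraries, within a design that cannot reach significance. They held 3.12% and 1.66% of reads of 18 nt or longer in Mdd libraries, against 3.97% and 5.73% in control libraries. The 95% Wilson intervals, with reads divided by the usual copies of a sequence, were 3.08% to 3.17% and 1.64% to 1.68% in Mdd libraries and 3.94% to 3.996% and 5.69% to 5.76% in control libraries, and cover counting error only. The groups did not overlap, and the means were 2.39% ± 1.04 in Mdd and 4.85% ± 1.24 in control (SD, n = 2 each). The exact two-sided permutation test gave p = 0.333, the smallest that 2 against 2 libraries allow. With members ending in GG left out, the shares were 2.99% and 1.42% in Mdd and 3.81% and 5.46% in control libraries. With all reads of 15 nt or longer as the base, they were 3.09% and 1.64% in Mdd and 2.997% and 4.18% in control libraries, and the groups overlapped. In bulk libraries, fewer cells that hold these RNAs and less of them per cell cannot be told apart. The difference of means was -2.45 percentage points, and -1.57 without control replicate 2. Neighbouring classes were also lower in both Mdd libraries. Sequences of 26 to 28 nt with first base T held 1.42% and 0.732% in Mdd and 1.54% and 2.21% in control libraries. Those of 29 to 32 nt with another first base held 0.223% and 0.138% in Mdd and 0.289% and 0.424% in control libraries. All genome-matched piRNA-labelled reads made up 8.62% and 4.65% in Mdd and 9.92% and 13.1% in control libraries.

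Members were also a smaller part of the piRNA-labelled reads. They were 36.2% and 35.7% of genome-matched piRNA-labelled reads in Mdd libraries, against 40.0% and 43.7% in control libraries (exact permutation p = 0.333, n = 2 each, no overlap). Set against the most similar class, the 26 to 28 nt piRNA-labelled reads with first base T, the log2 ratio of reads was 1.14 and 1.18 in Mdd and 1.36 and 1.37 in control libraries. The difference in this log2 ratio was -0.21, larger than the spread within either group, with the same smallest exact permutation p of 0.333.

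**Figure D1:**
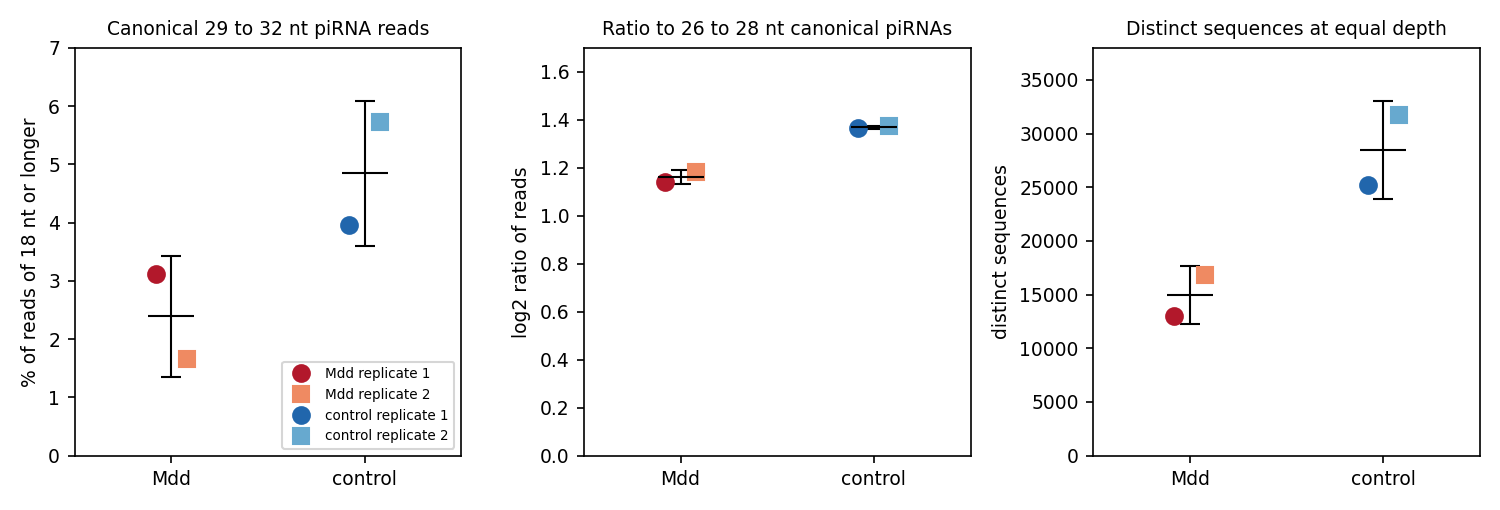
Points are libraries, the horizontal bars the group means and the whiskers 1 SD (n = 2 each), for the read share of canonical 29 to 32 nt piRNAs (percent of reads of 18 nt or longer), their log2 ratio to the 26 to 28 nt class, and the number of distinct sequences at 384999 member reads. In each panel both Mdd libraries lie below both control libraries.

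The length window sits on the peak of the piRNA-labelled reads. Among members, 30 nt was the commonest length, with 42.7% and 43.1% of reads in Mdd and 43.9% and 44.7% in control libraries, and 29 nt came next, with 36.2% and 35.3% in Mdd and 33.7% and 34.3% in control libraries. Members of 31 nt took 17.6% to 18.6% of reads and those of 32 nt 3.38% to 3.85% over the 4 libraries. Mean length by reads was 29.88 and 29.90 nt in Mdd and 29.93 and 29.90 nt in control libraries, a difference of -0.0212 nt that lay between -0.0335 and -0.00884 nt with each library left out (exact permutation p = 0.333, n = 2 each). At the edges of the window, sequences of 28 nt with first base T held 0.535% and 0.275% of reads in Mdd and 0.581% and 0.865% in control libraries, and just inside, those of 29 nt held 1.13% and 0.586% in Mdd and 1.34% and 1.96% in control libraries. At the other edge, 32 nt sequences held 0.110% and 0.0635% in Mdd and 0.153% and 0.193% in control libraries, and those of 33 nt between 0.0133% and 0.0310% in all. Of all genome-matched piRNA-labelled sequences of 29 to 32 nt, 90.9% to 91.5% began with T, which were 92.3% to 93.4% of the reads.

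**Figure D2:**
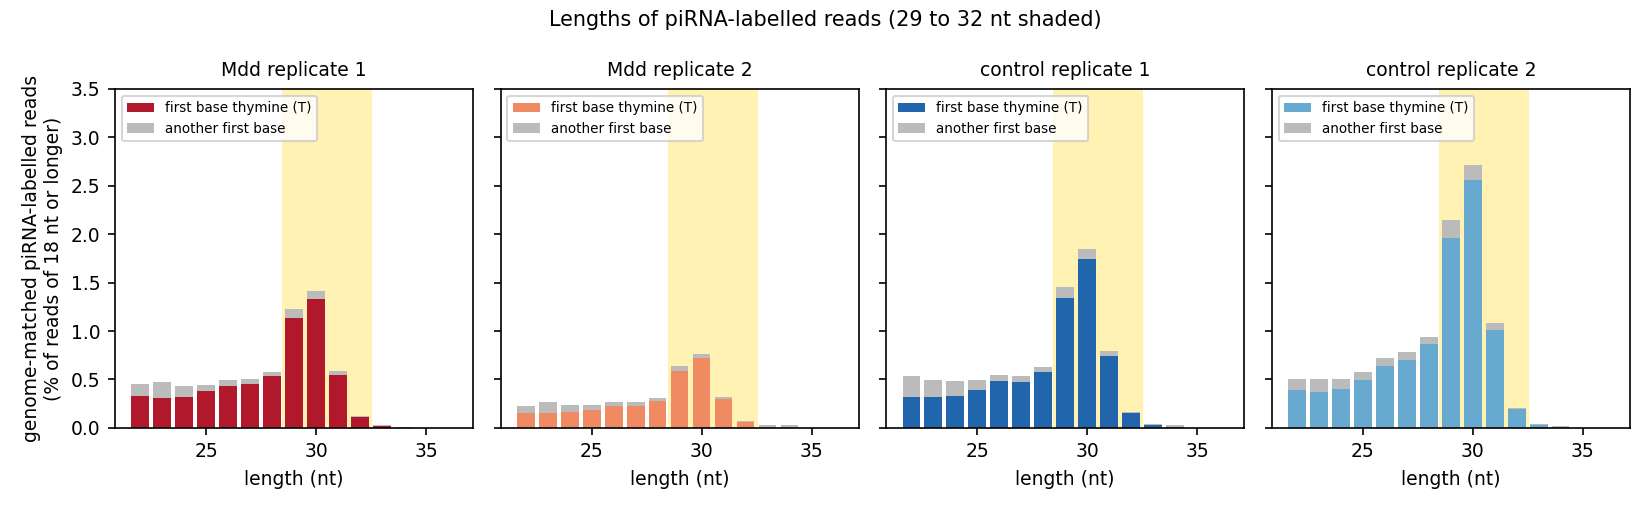
Bars are genome-matched piRNA-labelled reads by length (nt), as percent of reads of 18 nt or longer, coloured for first base T and grey for another first base, with 29 to 32 nt shaded. The peak is at 30 nt in all 4 libraries, at 1.33% and 0.716% of reads with first base T in Mdd and 1.74% and 2.56% in control libraries.

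Identical sequences came in numbers of copies that differed between libraries. Whether the reads of a sequence are independent molecules was not tested. Beyond the lowest counts, the smoothed number of members at each read count peaked at 37 and 9 reads in Mdd libraries and at 6 and 10 reads in control libraries. In both Mdd libraries more members still had 1 read than any other count, 3749 and 1784. Below the peak the number had a low point at 9 and 3 reads in Mdd libraries and at 2 reads in control replicate 2, and it fell to 1 read without a low point in control replicate 1. Divided by the peak, the member reads come to 20055 and 43919 in Mdd and 64167 and 95974 in control libraries. Of the 3749 members with 1 read in Mdd replicate 1, 56.2% were also present in another library, and of the 10025 above its low point 80.0% were. In Mdd replicate 2 the order was the other way, with 84.9% of the 1784 members with 1 read and 66.1% of the 14060 above its low point also present elsewhere.

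**Figure D3:**
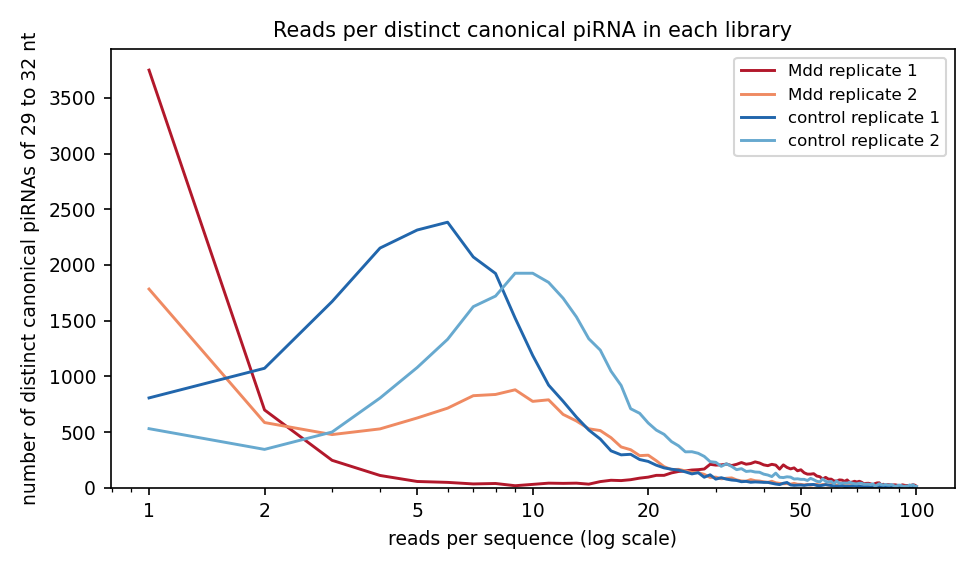
Lines give the number of distinct canonical piRNAs (vertical axis) at each read count from 1 to 100 (horizontal log axis) in the 4 libraries. Beyond the lowest counts the lines peak near 37 reads in Mdd replicate 1 and between 6 and 10 reads in the other libraries, and both Mdd lines are highest at 1 read, with 3749 and 1784 sequences.

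Fewer distinct canonical piRNAs were found in the Mdd libraries. There were 15030 and 16908 in Mdd libraries, against 25250 and 32619 in control libraries. At an equal 384999 member reads, the expected numbers were 13028 and 16861 in Mdd and 25250 and 31703 in control libraries (14945 ± 2710 against 28477 ± 4563, SD, n = 2 each; exact permutation p = 0.333). The size of this difference depended on how copies per sequence were handled. With members at or below each library's low point left out, the numbers were 10025 and 14060 in Mdd and 25250 and 31271 in control libraries. The difference was then -16218 in place of -13532. With the same members left out and reads also divided by the usual copies, the numbers were 10025 and 8962 in Mdd and 11361 and 11223 in control libraries. The difference was then -1799. With a minimum of 10 reads the groups overlapped, at 10024 and 9644 in Mdd and 9329 and 22663 in control libraries.

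Reads were spread over many sequences in every library. The most read member held 0.960% and 0.771% of member reads in Mdd and 0.931% and 1.34% in control libraries. The 100 most read of each library held 15.9% and 17.5% in Mdd, against 14.4% and 14.8% in control libraries (exact permutation p = 0.333, n = 2 each, no overlap). The difference was 2.10 percentage points, and 1.30 without Mdd replicate 2. With a minimum of 10 reads the groups overlapped, at 16.1% and 19.2% in Mdd and 18.6% and 15.8% in control libraries, and the difference was 0.424 points. To reach 50% of member reads took 1492 and 1331 sequences in Mdd and 2271 and 2366 in control libraries.

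A at position 10, the base that slicing-derived piRNAs carry, had shares that overlapped between the groups. It was found in 25.4% and 24.96% of distinct members in Mdd and 24.8% and 25.4% in control libraries (exact permutation p = 1, n = 2 each). The 95% Wilson intervals of the 4 values spanned 24.3% to 26.1% in Mdd and 24.3% to 25.9% in control libraries. Other positions from 2 to 29 had a median share of A of 23.8% to 24.4%, and between 5 and 10 of those 27 positions had more A than position 10.

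Members had other shares of A at position 10 than the neighbouring piRNA-labelled classes. Genome-matched piRNA-labelled sequences of the same length with another first base had A there in 34.6% and 35.1% of cases in Mdd and 34.5% and 35.2% in control libraries. Members were lower by 9.22 to 10.1 percentage points in all 4 libraries, and an exact sign-flip test over libraries gave p = 0.125, the smallest for 4. Sequences of 26 to 28 nt with first base T had A at position 10 in 22.1% and 22.4% of cases in Mdd and 22.02% and 22.9% in control libraries, so that members were higher by 2.46 to 3.25 points in all 4 (exact p = 0.125).

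The base that stood out within members was A at position 5. It was present in 38.7% and 39.2% of distinct members in Mdd and 37.5% and 38.2% in control libraries, the highest share of A at any position from 2 to 29. G was lowest at the same position, with 12.5% and 12.6% in Mdd and 12.4% and 12.9% in control libraries. The 26 to 28 nt class had A at position 5 in 35.3% to 37.0% of sequences, which was 2.11 to 2.62 points below the members of the same library in all 4 (exact sign-flip p = 0.125). Weighted by reads it was below in 3 of 4 libraries, with members at 40.5% and 39.98% in Mdd and 39.4% and 40.99% in control libraries, and the 26 to 28 nt class at 38.6% and 41.1% in Mdd and 38.3% and 39.03% in control libraries.

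**Figure D4:**
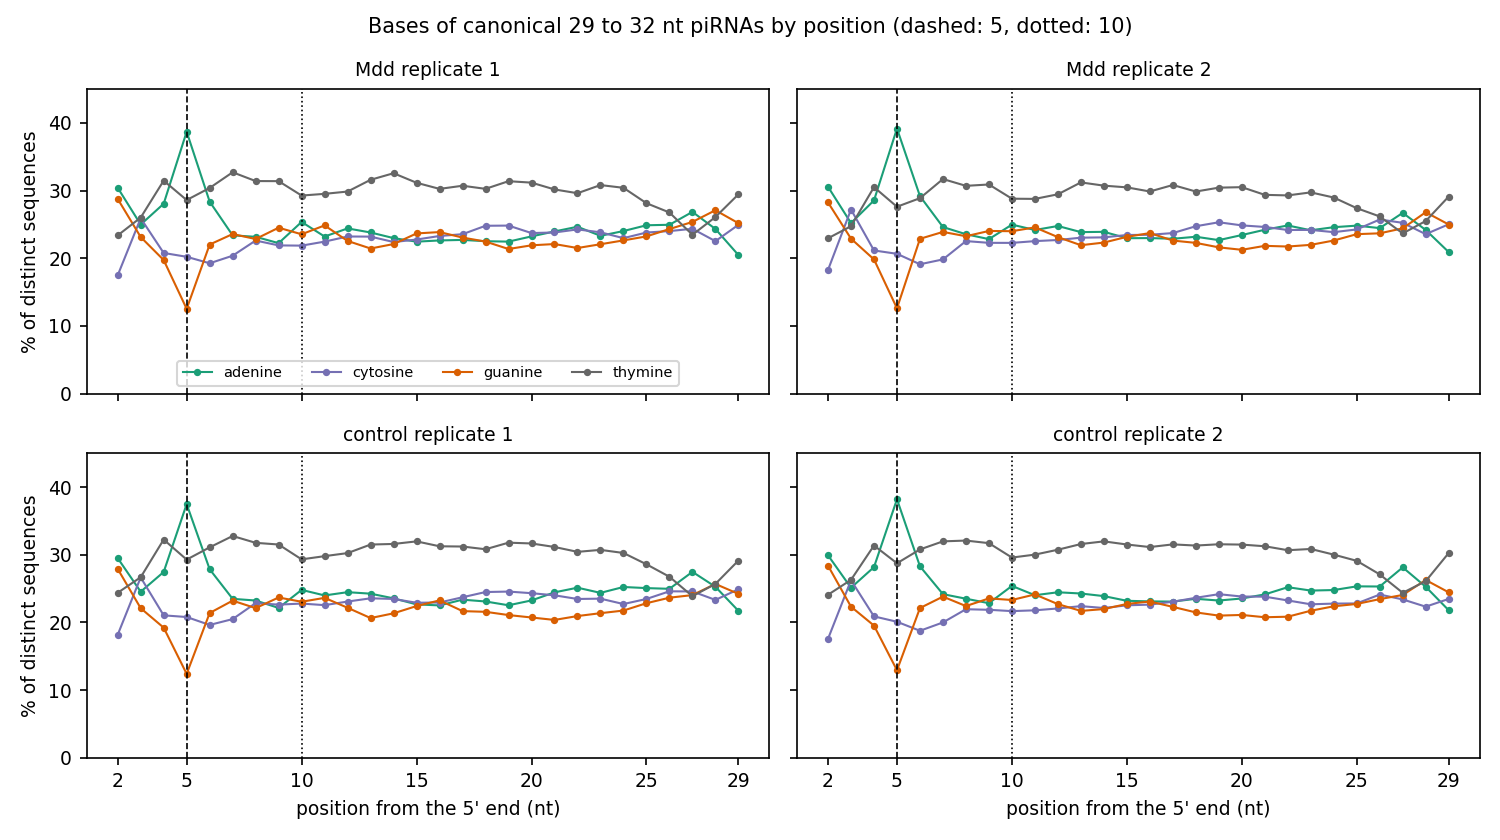
Lines are the share of distinct canonical piRNAs (percent) with each base at positions 2 to 29 from the 5′ end, for each library, with position 5 dashed and position 10 dotted. Adenine reaches 37.5% to 39.2% at position 5 and is between 24.8% and 25.4% at position 10 in the 4 libraries.

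Most members were seen in 1 library, while most reads lay in members that all libraries shared. Of the 56407 members, 36524 (64.8%) were in 1 library, 10570 in 2, 5109 in 3 and 4204 (7.45%) in all 4. The 4204 held 61.5% and 52.3% of member reads in Mdd and 52.8% and 52.0% in control libraries. Members found in 1 library made up 27.3% and 31.7% of the members of each Mdd library and 42.1% and 50.4% of those of each control library. The Mdd libraries shared 6897 members (45.9% and 40.8% of their lists) and the control libraries 12135 (48.1% and 37.2%). Between the groups, Mdd replicate 1 shared 49.2% and 55.1% of its members with control replicates 1 and 2, more than with Mdd replicate 2. Mdd replicate 2 shared 45.3% and 51.8% of its members with control replicates 1 and 2. The control lists are longer, and the members shared with Mdd replicate 1 were 29.3% and 25.4% of them. Of the list of Mdd replicate 2, 40.8% was shared with Mdd replicate 1. In both Mdd and neither control library there were 1211 members, and in both control and neither Mdd library 4304; the lists differ in length and copies, so these counts were not compared.

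The most read sequences overlapped further. Of the 100 most read members of each library, 34 were common to all 4, 51 to the Mdd pair and 71 to the control pair. Mdd replicate 1 had 63 and 65 in common with control replicates 1 and 2, more than with Mdd replicate 2, and Mdd replicate 2 had 42 and 47. Mdd replicate 2 stood apart here. Of the 100 most read, 3 and 22 ended in GG in Mdd libraries, against 2 and 4 in control libraries. One such sequence, placed in a lincRNA exon at chr3:34873388-34873416 on the plus strand and shown for its 3′ end, had 0 and 306 reads in Mdd and 0 and 3 reads in control libraries.
piRNA of Gm21388 ending in GG: TcatggactGgacattgtagcgctcaggg
GG ends were also commoner among other RNA classes of that library. tRNA reads ended in GG in 8.11% and 38.8% of cases in Mdd and 11.2% and 8.46% in control libraries, and rRNA reads in 5.53% and 25.7% in Mdd and 6.97% and 7.24% in control libraries.

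The most read member of the series was a 30 nt sequence with G at position 10 that matched no annotated transcript. It had 300.0 and 113 CPM in Mdd and 369 and 767 CPM in control libraries, so both Mdd values were below both control values (log2 fold change -1.25, SE 0.87, edgeR adjusted p = 0.915). The Gm5878 piRNA, second by mean level, had 196 and 35.7 CPM in Mdd and 242 and 408 CPM in control libraries (log2 fold change -1.38, SE 0.92, edgeR adjusted p = 0.871). The piRNA opposite Gm17187 came next, with 178 and 64.4 CPM in Mdd and 210 and 387 CPM in control libraries. All 3 were lowest in Mdd replicate 2 and highest in control replicate 2.

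The next members by mean level also had their lowest value in Mdd replicate 2. The most read 31 nt member, rank 4, had 190 and 57.9 CPM in Mdd and 254 and 196 CPM in control libraries. The most read 29 nt member, rank 5, had 122 and 22.3 CPM in Mdd and 124.7 and 201.4 CPM in control libraries. Rank 6, also 31 nt, had 93.1 and 37.6 CPM in Mdd and 117 and 197 CPM in control libraries. In these 3 both control values lay above both Mdd values, and control replicate 2 was highest in ranks 5 and 6 but not in rank 4. The most read 32 nt member had 78.1 and 38.6 CPM in Mdd and 61.8 and 98.0 CPM in control libraries, and its groups overlapped.

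Among the placed sequences printed above, that of Nemp1 had the widest gap between the groups. It had 21.3 and 10.5 CPM in Mdd and 79.5 and 72.5 CPM in control libraries (log2 fold change -1.99, SE 0.65, edgeR adjusted p = 0.327). The Cdc42ep3 piRNA overlapped between groups, with 34.4 and 45.3 CPM in Mdd and 54.5 and 27.6 CPM in control libraries (log2 fold change 0.42, SE 0.78). The Gm49794 piRNA had 54.7 and 10.5 CPM in Mdd and 51.9 and 102.5 CPM in control libraries, and that opposite Gm7787 52.6 and 12.9 CPM in Mdd and 87.7 and 56.9 CPM in control libraries. None of these passed edgeR's adjusted threshold of 0.05.

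Members with identical first 20 bases were grouped, and 47.1% of members shared those bases with another member. There were 41381 such 5′ groups, of which 72.1% held 1 member and the largest 21, which is more than the 4 lengths alone could give. The 4346 groups found in all 4 libraries were 10.5% of groups and held 70.8% and 61.9% of member reads in Mdd and 62.5% and 61.3% in control libraries. In the most read group the 30 nt form held 97.7% and 98.6% of the group's reads in Mdd and 99.7% and 99.0% in control libraries. In the Gm5878 group the 30 nt form held 80.9% and 90.9% in Mdd and 85.2% and 89.5% in control libraries, and the 29 nt form 18.3% and 8.88% in Mdd and 14.4% and 10.5% in control libraries. The group led by the most read 31 nt member kept 75.1% and 74.3% of its reads at 31 nt in Mdd and 73.6% and 75.3% in control libraries. In the group opposite Gm17187 the 30 nt form held 93.9% and 93.5% in Mdd and 96.7% and 93.5% in control libraries. In all 4 groups the share of the leading length overlapped between Mdd and control except in the most read group, where both control values were above both Mdd values.

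Exact matching placed 7945 members (14.1%) on annotated transcripts, with 9.55% to 11.1% of member reads, and no genome sequence was used to place the rest. Of these, 6874 lay in 1 gene, over 951 genes. Sense strands of protein-coding genes held 3354 members, and 2840 of those (84.7%) lay in the 3′ UTR, 399 in coding exons and 79 in the 5′ UTR. Where transcripts of a gene gave a member different features, the 3′ UTR was taken first. The 3′ UTR counts here and by gene below are therefore upper limits. Sense lincRNA exons held 1281 members, and 637 were antisense to processed pseudogenes. On 5715 placed 5′ ends, 2 had a partner on the opposite strand with the 10 nt overlap that paired slicing leaves. Each other overlap of 5 to 20 nt had 0 or 2. Both partners had to be members, and so to begin with T, and to be placed at 1 locus of the annotated transcripts. The count therefore cannot decide how common paired slicing was.

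The genes with the most members included lincRNAs, 3′ UTRs of protein-coding genes and transcripts with members on the opposite strand. Gm49794, a lincRNA on chromosome 17, held 367 members, which summed to 285 and 162 CPM in Mdd and 379 and 544 CPM in control libraries. Gm5878 on chromosome 6 held 192 members and the highest summed level, 353 and 74.5 CPM in Mdd and 436 and 724 CPM in control libraries. In 1700001L05Rik, a lincRNA on chromosome 15 with 263 members, the groups overlapped, with 110 and 58.0 CPM in Mdd and 98.0 and 226 CPM in control libraries. For Gm49794 and Gm5878 both Mdd sums were below both control sums.

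Gm21388 on chromosome 3 held 231 members, with 80.1 and 59.7 CPM in Mdd and 92.8 and 158 CPM in control libraries. The transcript 5330409N07Rik on chromosome 12 had 226 members, all antisense, with 159 and 76.2 CPM in Mdd and 237 and 346 CPM in control libraries. Both sets of values were lower in the Mdd libraries without overlap. The most read members of 1700001L05Rik, Gm21388 and 5330409N07Rik are shown as examples of these lincRNA and antisense loci. They lie at chr15:83355892-83355920 on the minus strand, chr3:34873654-34873683 on the plus strand and chr12:98447234-98447263 on the plus strand.
piRNA of 1700001L05Rik: TttttaatcGttttaactgtttgcttggc
piRNA of Gm21388: TgctaggtcAcatgtgctccacgttgtcac
piRNA opposite 5330409N07Rik: TgaccatttCactcagactgtaaccatgac

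Among protein-coding genes, Nemp1 on chromosome 10 held 212 members, 174 of them in the 3′ UTR and 38 in coding exons. They summed to 135 and 45.995 CPM in Mdd, against 235 and 242 CPM in control libraries. Cbl on chromosome 9, which encodes an E3 ubiquitin ligase, held 195 members, 194 of them in the 3′ UTR, with 75.8 and 35.1 CPM in Mdd and 108 and 150 CPM in control libraries. Ago2 on chromosome 15, the gene of the slicing Argonaute of the miRNA pathway, held 160 members, 159 of them in the 3′ UTR, with 38.5 and 17.1 CPM in Mdd and 46.4 and 85.8 CPM in control libraries. The sums of all 3 genes were lower in both Mdd libraries than in either control library. In Stox1 on chromosome 10, a winged-helix transcription factor gene, 160 of 161 members were antisense, 58.7 and 56.2 CPM in Mdd and 61.5 and 107 CPM in control libraries. Asb1 on chromosome 1, with 138 of 150 members in the 3′ UTR, overlapped between groups, at 59.2 and 22.1 CPM in Mdd and 41.3 and 64.5 CPM in control libraries.

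Of the 20 genes with the most members, 16 had both Mdd sums below both control sums, beside 58 of the 95 genes with 10 or more members (61.1%) and 176 of all 951 genes (18.5%). As a share of each library's member reads, 4 of the 20 were below and 3 above in both Mdd libraries, beside 23.2% below and 13.7% above of the 95 genes, and 12% below and 5.26% above of the 951. Summed CPM was thus lower in Mdd at most of the 20 genes, while shares of member reads went both ways. Genes were ranked by members pooled over the libraries, and 45734 members were in any control but 25041 in any Mdd library. The ranking can therefore favour genes with many members in control libraries. Only 95 of the 951 genes held 10 or more members, so the share over all 951 is not a like background.

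**Figure D5:**
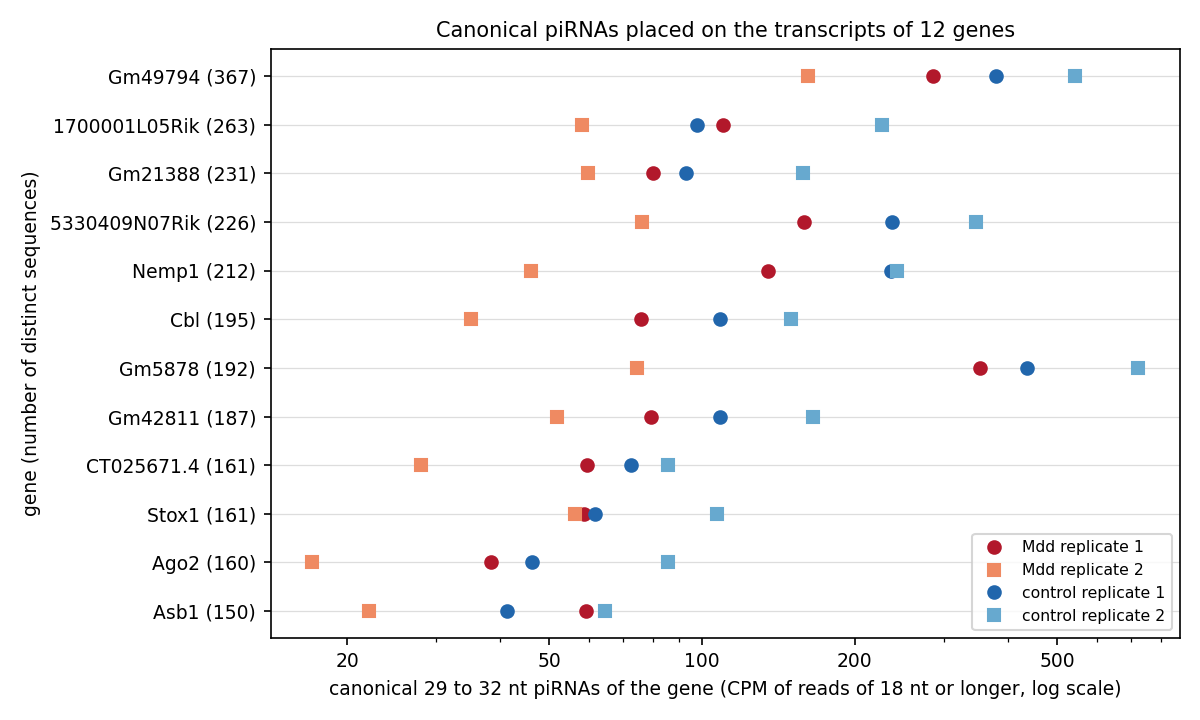
Points are the summed CPM (log axis) of canonical 29 to 32 nt piRNAs placed in each of 12 genes, with the number of distinct sequences in brackets. Mdd replicate 2 is lowest for every gene shown, and control replicate 2 is highest for every gene shown.

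Single members were counted in the same way. Of the 4204 members in all 4 libraries, 1500 (35.7%) had both Mdd CPM values below both control values, while 23.3% of the 32727 annotated sequences present in all 4 did. For 123 (2.93%) both were above, against a background of 9.69%. Median CPM of these members was 2.27 and 0.798 in Mdd and 2.27 and 3.10 in control libraries. With member reads as the base instead, 621 were below and 714 above.

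No member passed the count test. edgeR's quasi-likelihood test over 79093 annotated sequences tested 12904 of the 56407 members. The rest had too few reads in total or reached the filter's minimum in too few libraries. It called 0 members at an adjusted p of 0.05, where 0.0% of all tested sequences were called. Unadjusted p was under 0.05 for 2496 tested members (19.3%), with 13.2% of all tested sequences. The median log2 fold change of the tested members was -0.79, and that of all tested sequences -0.04. A sequence could pass the filter through 1 group alone, the group where it is high, as 20 members with 0 reads in both Mdd libraries did. The share with low unadjusted p and these medians rest in part on such sequences, and are not a test of a shift. With 1 library left out the filter was run again, and a sequence read in 1 library alone could pass. Between 16490 and 23280 members were then tested in place of 12904, so those medians do not describe the same sequences as the main fit. The sign turned without control replicate 2, where the medians were 0.83 for members and 1.61 for all. Without Mdd replicate 1 they were -5.68 and -1.27. Without Mdd replicate 2 they were -5.31 and -4.36, and without control replicate 1 -1.03 and 0.23. With libraries scaled by total alone the medians were -1.09 and -0.42, and with the test confined to genome-matched piRNA-labelled sequences -0.35 and -0.15. Of the 41381 5′ groups 17743 were tested and 0 were called, with 0.0% of all 50533 groups called; unadjusted p was under 0.05 for 3048 (17.2%), with 14.8% of all.

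DESeq2, run as an alternative, called 14 members, 2 higher and 12 lower in Mdd (0.108% of those tested), with 0.25% of all sequences called, 0.178% higher and 0.0721% lower. The 12 lower members had at most 1 read in the Mdd libraries, 20 to 78 reads in control replicate 1 and 56 to 176 in control replicate 2. The 2 higher members had 139 and 499 reads in Mdd against 0 and 1 in control libraries, and 62 and 151 in Mdd against 0 and 0 in control libraries. Of the 12 lower, 1 was placed in a gene, in a Gm49794 exon at chr17:27359226-27359254 on the plus strand, and had 0 and 0 reads in Mdd and 43 and 90 reads in control libraries.
piRNA of Gm49794, lower by DESeq2: TctatctgtTtcctaggtgtgtagggggc
For the wider 5′ groups DESeq2 called 32, 11 higher and 21 lower, with 0.4% of all groups called, 0.297% higher and 0.103% lower.

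By edgeR the lowest p on the negative side was shared by 20 members, which all had 0 and 0 reads in Mdd and 5 and 10 reads in control libraries (adjusted p = 0.182). Those control counts lie at or near the usual copies of a sequence, 6 and 10. One of them, in the 3′ UTR of Nemp1, lies at chr10:127698499-127698528 on the plus strand.
piRNA of Nemp1, 0 reads in Mdd libraries: TagttatttCaaccaatgttccccatagcc
On the positive side the lowest p was that of the 30 nt member with 139 and 499 reads in Mdd against 0 and 1 in control libraries (edgeR adjusted p = 0.186). The next 3 had 22 and 13, 22 and 15, and 27 and 12 reads in Mdd, against 0 and 0 reads each in control libraries (edgeR adjusted p = 0.229, 0.256 and 0.256). The usual copies in the Mdd libraries were 37 and 9.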

How the data were processed

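Per the labels' protocols, RNA of 18 to 40 nt was selected and prepared with an MGI small RNA kit. The authors deposited, per the file headers, a raw read count for each distinct sequence of 15 to 45 nt, with its length, genome match and annotation. Per the submitters' processing notes, DESeq2 and mm9 were used; which aligner, adapter trimming or databases were used is not given in the sources used here.

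Tables were joined by sequence with pandas 2.3.3 in Python 3.11.15, and CPM uses reads of 18 nt or longer. Members and lists were chosen with earlier results of these data known. Shares were compared by exact two-sided permutation tests. Counts were tested with edgeR 4.0.16 in R 4.3.3 (quasi-likelihood, TMM scaling, filterByExpr) on all annotated sequences of 18 nt or longer. The test was repeated after summing all of them by RNA class and identical first 20 bases. Benjamini-Hochberg adjustment was at 0.05 and standard errors were taken from the F statistic. The fits were tested on simulated data. Members were matched exactly to GENCODE M21 transcripts (GRCm38) on both strands. Named members were the 6 of highest mean CPM, the most read of each length, the 4 of lowest p in each direction and the 4 most read 5′ groups. Letters of members that could not be placed on a transcript, or with a match on chromosome 18, are not printed. The same holds for members of 31 or 32 nt with a match in a UTR. Usual copies are the peak, beyond the lowest counts, of the number of members by read count, smoothed over 5 counts. Alternatives were DESeq2 1.42.0, RLE scaling, scaling by library size alone, robust dispersion, an unfiltered fit, the replicate block, other length and annotation limits, a minimum of 10 reads and each library left out; the correction for copies, the low-point filter and the omission of GG ends were added after seeing the data.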

Additional observations from a re-analysis of the deposited data

How the results depend on the processing

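Read share, share of piRNA-labelled reads, ratio to the 26 to 28 nt class, distinct number, mean length and share of the 100 most read kept the direction of their difference of means under every alternative run for them, although groups overlapped under some. The small difference in A at position 10, 0.048 percentage points, turned to -0.16 with at least 10 reads. It was -0.81 with members at or below the low point left out. The setting that divides reads by the usual copies leaves out the same members, and so gave the same -0.81. The difference was -0.070 weighted by reads and -0.087 over 5′ groups, and it lay between -0.25 and 0.34 with each library left out. DESeq2 called 14 members and 32 groups, and no filter called 4 groups, where edgeR called 0. Leaving out 1 library gave 0 to 131 called members and 0 to 318 groups: 131 and 318 without Mdd replicate 1, 7 and 84 without Mdd replicate 2, and 0 without either control library, with the lone sample taken to vary like the other group. The cause was not tested. Same-numbered libraries did not deviate together (correlation 0.0111 over all sequences and 0.0558 over members), so the numbers were not taken as pairs. The replicate block called 1 member and 1 group, beside 14 of all 79093 sequences and 13 of all 50533 groups. The most read 32 nt member changed sign, to log2 fold changes of -0.50 to 0.17 with each library left out (0.17 without control replicate 2) and 0.19 among piRNA-labelled sequences alone. With 2 libraries a group no permutation test can pass 0.05, and a count of 3 reads, the floor, is 0.126 to 0.309 CPM.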

Other observations

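Members hardly ever ended in TGG: 0 of 15030 and 0 of 16908 did in Mdd libraries and 0 of 25250 and 1 of 32619 in control libraries, while the mean share of TGG over 5 places inside the same members was 2.19% and 2.15% in Mdd and 2.08% and 2.17% in control libraries. TGT, by contrast, was the end of 4.53% and 4.16% of members in Mdd and 4.10% and 4.44% in control libraries. T was the last base of 37.8% and 37.1% of members in Mdd and 37.9% and 38.6% in control libraries. In the transcripts, the base after the 3′ end of placed members was T in 31.9% and 29.7% of cases in Mdd and 29.6% and 30.3% in control libraries. The cause of the missing TGG ends was not tested.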
